A study of Mus musculus with 69 samples.

Results

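Intergenic H3K79me2 peaks were the distinct peaks of the Standard and ELS lists whose annotation lines named only a region between genes, with no line for a gene body or a promoter. They were 2624 of the 117819 distinct peaks of the Standard list (2.23%) and 2109 of the 106374 distinct peaks of the ELS list (1.98%). Of these, 2002 Standard and 1708 ELS peaks carried the region OtherIntergenic, 615 and 396 Genedeserts, and 7 and 5 Subtelomere, while Pericentromere held 0 of the 2624 and 0 of the 2109. Another 164 Standard and 123 ELS peaks carried both an intergenic and a genic line and were not counted.

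All samples came from the nucleus accumbens of male mice, a brain region of the ventral striatum whose main cells are medium spiny neurons. The ChIP groups were Standard rearing (9 ChIP and 9 input libraries) and early life stress, ELS (9 ChIP and 10 input libraries), and the authors deposited 1 peak list for each. The RNA groups were Standard GFP, ELS GFP, Standard Dot1l overexpression and ELS Dot1l knockdown, with 8 libraries each. RNA was prepared from whole tissue, the labels give neither age nor strain, and they do not name the vector, the cells it reached or the length of the stress. With 1 list per rearing group and no replicate value behind a peak, widths, folds, distances and overlaps are descriptions without a test, and a difference between the lists has no replicate check. The RNA libraries held 0.314 to 11.1 M counts, and 3 Standard GFP and 1 ELS Dot1l knockdown library held under 1 M. Medium spiny neuron markers were present in Standard GFP (Pde10a mean 547 CPM, Drd2 mean 108 CPM, Penk mean 203 CPM, as counts per 1 M counts), beside the glial genes Slc1a3 (mean 406 CPM) and Mag (mean 32.5 CPM). Of the microglia markers, Csf1r had a mean of 148 CPM and Cx3cr1 of 80.1 CPM, while P2ry12 was listed at 0 in each group.

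H3K79me2 is the dimethylation of lysine 79 of histone H3. It is placed by Dot1l, the methyltransferase of this residue in mammals, which travels with transcribing RNA polymerase II. The mark is known for covering the start and the first part of transcribed genes and for being low elsewhere, so a peak far from any gene is a place where annotation and mark can be compared.

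Most of the intergenic peaks were not between genes in another annotation of the same build. Against the RefSeq genes of GRCm38.p6, which has the coordinates of mm10, 2115 of the 2624 Standard peaks (80.6%) and 1730 of the 2109 ELS peaks (82.0%) lay inside a gene. Protein-coding genes that the lists themselves name on other lines held 1659 Standard (63.2%) and 1366 ELS peaks (64.8%). Protein-coding genes without such a line held 250 and 200, lncRNA genes 192 and 157, and other RefSeq genes 14 and 7. The remaining 489 Standard and 372 ELS peaks lay outside every RefSeq gene, and 20 and 7 lay on patch or unplaced sequences where no RefSeq gene was placed.

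Inside RefSeq genes that the lists name, nearly all of the peaks lay ahead of the start that the lists give to the gene. This held for 1609 Standard (95.3%) and 1330 ELS peaks (96.1%), against 51 and 35 beyond the listed end and 28 and 19 within the outer limits of the listed transcripts. Over the 8815 protein-coding genes compared, RefSeq reached 18.4 Mb ahead of the listed starts and 7.40 Mb beyond the listed ends. In these protein-coding genes the stretches ahead of the starts held 1609 Standard and 1330 ELS intergenic peaks, or 87.4 and 72.3 per Mb. Those beyond the ends held 48 and 35, or 6.49 and 4.73 per Mb. Listed spans come from lines near peaks, so a listed start here is the outermost one the 2 lists show, which need not be the outermost one of the authors' annotation.

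RefSeq promoters at the 5′ ends of 5 genes with many intergenic peaks are printed here because the intergenic peaks run from them toward the listed start. Each sequence runs from 250 bases before to 50 bases after the RefSeq start, 5′ to 3′ on the strand of the gene, from RefSeq on GRCm38.p6, and the capitals mark CpG dinucleotides, counted from the letters C and G.
Trak1, chr9:121297252-121297551, + strand: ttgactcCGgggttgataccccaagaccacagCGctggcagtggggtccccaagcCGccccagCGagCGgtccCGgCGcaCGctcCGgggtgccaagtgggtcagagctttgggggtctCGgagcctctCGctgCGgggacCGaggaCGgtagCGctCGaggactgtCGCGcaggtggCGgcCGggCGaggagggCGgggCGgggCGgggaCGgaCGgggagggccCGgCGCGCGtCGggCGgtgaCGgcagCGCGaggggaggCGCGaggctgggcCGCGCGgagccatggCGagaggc
Tafa5, chr15:87544049-87544348, + strand: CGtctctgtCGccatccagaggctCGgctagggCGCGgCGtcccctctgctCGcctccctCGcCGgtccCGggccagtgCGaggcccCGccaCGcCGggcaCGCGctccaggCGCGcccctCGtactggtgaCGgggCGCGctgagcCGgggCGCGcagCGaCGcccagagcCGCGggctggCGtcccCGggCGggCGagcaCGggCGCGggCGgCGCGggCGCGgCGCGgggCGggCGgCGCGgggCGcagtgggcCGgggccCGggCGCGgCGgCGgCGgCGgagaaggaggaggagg
Slc35f3, chr8:126138875-126139174, + strand: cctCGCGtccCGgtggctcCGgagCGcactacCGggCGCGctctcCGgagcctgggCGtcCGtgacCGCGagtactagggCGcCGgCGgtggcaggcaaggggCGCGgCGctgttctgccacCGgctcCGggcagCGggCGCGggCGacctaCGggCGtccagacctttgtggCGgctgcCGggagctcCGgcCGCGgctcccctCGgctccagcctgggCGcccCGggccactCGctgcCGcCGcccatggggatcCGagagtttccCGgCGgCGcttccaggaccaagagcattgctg
Fat3, chr9:16502005-16502304, - strand: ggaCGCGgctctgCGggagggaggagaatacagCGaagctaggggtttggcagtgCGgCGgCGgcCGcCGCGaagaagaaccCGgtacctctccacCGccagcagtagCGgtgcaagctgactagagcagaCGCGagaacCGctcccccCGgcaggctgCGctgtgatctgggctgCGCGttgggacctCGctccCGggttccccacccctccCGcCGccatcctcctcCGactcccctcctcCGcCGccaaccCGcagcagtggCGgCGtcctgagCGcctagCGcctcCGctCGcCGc
Rbfox1, chr16:5884543-5884842, + strand: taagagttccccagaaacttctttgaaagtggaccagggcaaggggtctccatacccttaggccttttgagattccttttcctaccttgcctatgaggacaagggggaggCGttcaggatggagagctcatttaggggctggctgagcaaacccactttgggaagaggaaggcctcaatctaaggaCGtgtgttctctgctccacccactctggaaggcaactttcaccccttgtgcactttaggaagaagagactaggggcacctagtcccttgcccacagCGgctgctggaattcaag

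The first 4 sequences held 41, 56, 42 and 35 CpG and that of Rbfox1 held 3, beside a median of 7 over the 32851 RefSeq promoters of this length, of which 43.5% held 10 or more. These 5 do not stand for all genes with many intergenic peaks, since the first 4 are those with most CpG among the 17 such genes with a promoter entry, which ranged from 0 to 56 with a median of 15. In 8 of the 17 the entry lay within 1 kb of the RefSeq 5′ end of the gene, with 3 to 56 CpG, and in the other 9 farther inside it, with 0 to 24. No peak of either list covered the RefSeq start in the 5 windows printed, though a Standard peak overlapped the Trak1 window by 1 base at its end. The nearest peak was intergenic at all 8 promoters at a 5′ end, the 5 printed included, and at 0 of the 9 farther inside. At those 9 a peak covered the start of the entry at 3 in the Standard and 2 in the ELS list. The rule leaves out peaks with a promoter or gene-body line, so this split is in part set by where listed transcripts start. The 17 genes were also taken for their many intergenic peaks, so the split is a description and not a test. In the Standard list the nearest peak lay 0.048 kb from the RefSeq start at Trak1, 1.80 kb at Tafa5, 2.84 kb at Slc35f3, 3.01 kb at Fat3 and 0.641 kb at Rbfox1. In the ELS list it lay 0.114, 1.87, 2.94, 2.97 and 1.47 kb away in the same order. Among all intergenic peaks, 17 Standard and 12 ELS peaks overlapped 22 of the 32851 RefSeq promoter windows, of 18 genes, the Trak1 window included. These windows held a median of 5 CpG. A pair of them, with 29 and 34 CpG, belonged to Fgf12 and lay under 1 Standard peak.

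A pair of miRNA genes lay under 1 of the Standard intergenic peaks, chr13:48537240-48545700, which was 8460 bp wide with a fold of 2.64. They are let-7f-1 and let-7a-1 of the let-7 family, miRNAs that rise as cells mature. Their mature sequences share seeds (bases 2 to 8, in capitals), GAGGUAG on the 5p arm and UAUACAA on the 3p arm, and are printed because they are the miRNAs that the intergenic peaks held.
let-7a-5p: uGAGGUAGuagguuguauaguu
let-7f-5p: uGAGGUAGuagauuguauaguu
let-7a-1-3p: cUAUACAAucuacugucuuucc
let-7f-1-3p: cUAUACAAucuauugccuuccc
The same stretch was divided in the ELS list into 4 peaks of 255 to 5477 bp with folds of 1.62 to 2.11. All 4 carried promoter lines, so 0 of them counted as intergenic, although 1 of them, 476 bp wide, covered both hairpins. Whether a peak is called intergenic here thus differed between the lists at a place that both lists mark.

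The genes with most intergenic peaks were long, and several act in neurons. Rbfox1, a splicing regulator of neurons at chr16:5884793-7412480, held 194 Standard and 104 ELS intergenic peaks. RefSeq starts this gene 924 kb ahead of its listed start, and the peaks ran from 0.734 to 919 kb from the RefSeq 5′ end, covering 83.7 kb in the Standard and 41.1 kb in the ELS list. Rarb, a retinoic acid receptor used by striatal neurons at chr14:16430839-17082331, held 143 Standard and 76 ELS intergenic peaks over the 507 kb ahead of its listed start. They covered 68.8 and 30.9 kb. Robo1, a receptor for Slit guidance cues at chr16:72027518-73047491, held 105 and 52 over 636 kb, and none lay in the last 130 kb before the listed start.

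These 3 genes were marked thinly. Intergenic and other peaks covered 9.33% of the stretch ahead of the listed start of Rbfox1 (Standard) and 4.63% (ELS), against 16.6% and 8.24% from the listed start on. At Rarb the cover was 13.6% and 6.09% ahead of the listed start and 42.6% and 25.8% after it. At Robo1 it was 7.82% and 3.27%, then 28.9% and 14.2%. Their intergenic peaks had median folds of 1.82 to 1.84 (Standard) and 1.79 to 1.83 (ELS), below the medians of all intergenic peaks, and 66 of 194, 56 of 143 and 42 of 105 Standard peaks overlapped an ELS peak.

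Other genes were marked densely ahead of their listed starts. Arhgap32, a GTPase-activating protein of neurons, was covered over 70.7% (Standard) and 64.5% (ELS) of the 99.5 kb ahead of the listed start, and over 38.3% and 26.8% after it. Klf12, a zinc-finger repressor, was covered over 61.5% and 44.9% of 136 kb, then over 5.81% and 2.15%. Fat3, an atypical cadherin, was covered over 57.0% and 38.6% of 124 kb, then over 22.5% and 11.4%. Tiam1, an exchange factor for Rac, was covered over 51.9% and 36.0% of 166 kb, then over 30.7% and 17.2%. At these 4 genes the covered share was higher ahead of the listed start than after it.

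Tafa5, a secreted chemokine-like protein that the lists call Fam19a5, was covered alike on both sides of the listed start, at 75.1% and 73.0% in the Standard and 58.5% and 58.6% in the ELS list. Iqsec1, an exchange factor for Arf6, was covered over 28.1% and 22.4% ahead of the listed start and over 71.2% and 63.3% after it. Slc35f3, a solute carrier linked to thiamine transport, gave 21.9% and 14.6% ahead and 29.9% and 16.8% after. Fgf12, a sodium-channel partner of the fibroblast growth factor family, was sparse on both sides, at 5.92% and 3.61% ahead and 4.52% and 2.47% after. In each of these 11 genes the ELS list covered a smaller share than the Standard list ahead of the listed start, as it did over all peaks, which summed to 92619 kb in the ELS and 126097 kb in the Standard list.

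**Figure D1:**
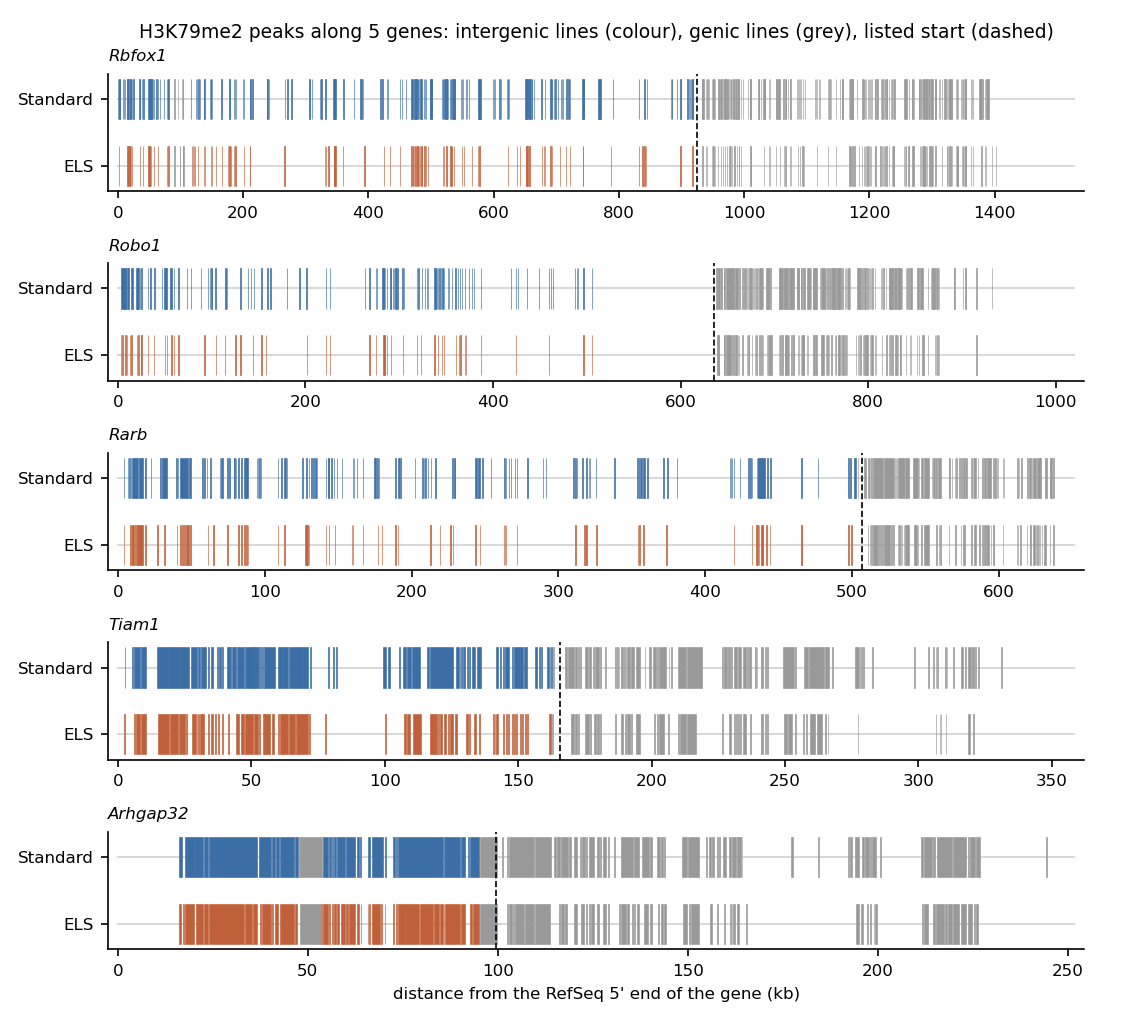
H3K79me2 peaks along 5 genes against the distance from the RefSeq 5′ end (kb), with the Standard list above the ELS list. Blue and orange blocks are intergenic peaks, grey blocks are peaks with a genic line, and the dashed line is the outermost start in the lists, 924 kb from the 5′ end at Rbfox1 and 99.5 kb at Arhgap32.

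In all, 207 RefSeq genes held an intergenic peak, 153 of them protein-coding and 44 lncRNA genes, and 155 held one from each list. The 10 genes with most held 31.3% of the intergenic peaks of both lists together, 71 genes held 10 or more, and 40 held a single one. Beyond those above, Foxn3, a forkhead factor, held 44 Standard and 25 ELS peaks, and Rps6ka2, a ribosomal S6 kinase, the same numbers. Trak1, an adaptor of mitochondrial transport, held 30 and 38, and Tln2, a talin of integrin adhesion, 27 and 37. Cplx2, a complexin of synaptic vesicle release that no line of the lists names, held 30 and 29, and Dlg2, a scaffold of the postsynaptic density, 33 and 15. The lncRNA genes Gm42339 and Gm27243 held 30 and 41, and 35 and 25.

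Within protein-coding genes the intergenic peaks lay closer to the 5′ end than genic peaks did. Their median position was 21.2% of the gene length from the 5′ end in the Standard and 18.6% in the ELS list, against 33.0% and 30.0% for genic peaks. The 5′-most 50% of the gene held 90.8% and 92.8% of them, against 70.3% and 74.0% of the genic peaks. The rule leaves out peaks on a listed transcript, so this position is in part set by where listed transcripts start.

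Both kinds of peaks were narrower farther from the RefSeq 5′ end. Standard intergenic peaks in protein-coding genes had a median width of 529 bp within 10 kb of it (n = 345) and 604 bp at 25 to 50 kb (n = 311), then 396 bp at 100 to 200 kb (n = 189) and 329 bp beyond 200 kb (n = 326). Genic peaks went from 635 to 539, 453 and 414 bp over the same ranges. ELS intergenic peaks went from 552 to 505, 326 and 309 bp, and ELS genic peaks from 576 to 492, 416 and 374 bp. Median folds of the intergenic peaks went from 1.99 within 10 kb to 1.82 beyond 200 kb in the Standard list and from 1.99 to 1.79 in the ELS list. The genes differ between these ranges. Of the genes whose cover is given above, only Rbfox1, Rarb, Robo1 and Fgf12 have more than 200 kb ahead of the listed start. Whether widths and folds fall along single genes was not tested.

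**Figure D2:**
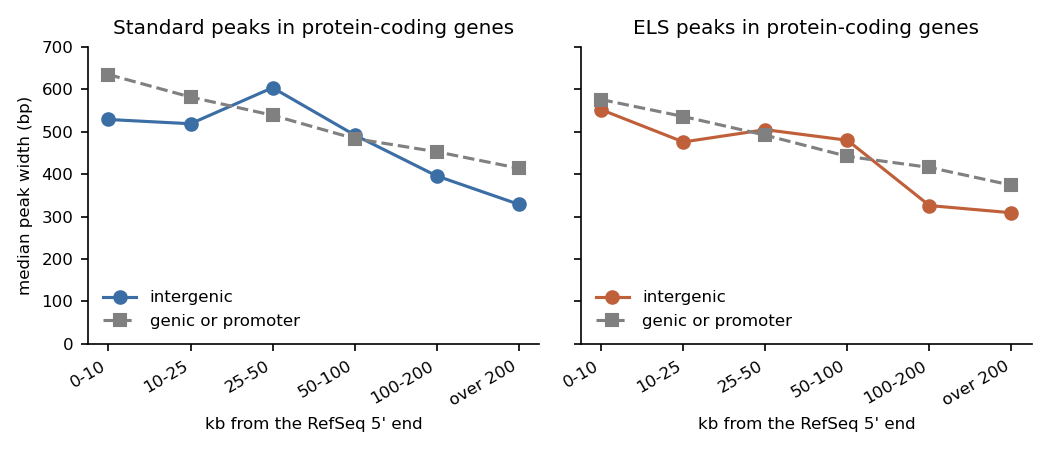
Median width (bp) of H3K79me2 peaks in protein-coding genes by distance from the RefSeq 5′ end (kb), with intergenic peaks as circles and genic peaks as squares, for each list. Beyond 200 kb the intergenic medians are 329 bp (Standard) and 309 bp (ELS), below the genic medians of 414 and 374 bp.

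As a class the intergenic peaks were somewhat narrower than genic peaks, with nearly the same fold. The fold is the authors' enrichment value of each peak. The median width was 438 bp (range 178 to 14230) in the Standard list against 514 bp for genic peaks, and 421 bp (range 181 to 13093) in the ELS list against 479 bp. The median fold was 1.92 (range 1.36 to 3.34) against 1.96 in the Standard list and 1.90 (range 1.36 to 3.15) against 1.92 in the ELS list. In length they made up 1.78% of all peak bases in the Standard and 1.67% in the ELS list. Peaks labelled Genedeserts were narrower still, with medians of 373 and 349 bp and folds of 1.84 and 1.83, and 90.9% and 90.2% of them lay inside a RefSeq gene.

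Measured to the nearest gene that any line of the lists names, the distance depended on the annotation. The median was 31.7 kb in the Standard and 30.0 kb in the ELS list, with 24.4% in each within 10 kb, and 62.3% and 65.6% within 50 kb. Measured to the nearest RefSeq gene the median distance was 0 in both lists. Of the Standard peaks, 1711 lay upstream of the start of the nearest listed gene, 886 beyond its end and 6 on it. Of the ELS peaks, 1389 lay upstream, 710 beyond and 1 on it, while 21 and 9 lay on sequences with no listed gene.

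A few listed genes were nearest to a large share, since 10 of the 381 nearest genes accounted for 28.7% of the peaks with one. Rarb was nearest to 240 intergenic peaks of both lists, at a median of 359 kb, and all 240 lay upstream. Robo1 was nearest to 157, Fat3 to 135, Rbfox1 to 121, Tiam1 to 100 and Slc35f3 to 85. Also among the 10 were 1700123O21Rik with 177 peaks, Gm13052 with 158, Gm26614 with 89 and Ppp1r2-ps2 with 89.

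Nearest genes were also looked up in gene lists for the tissue. Of 15 genes shared by medium spiny neurons Rarb was one, and of 32 axon guidance and adhesion genes Robo1 with 157, Cdh10 with 6 and Robo2 with 5. The lists for D2-type genes, striatal transcription factors, immediate early genes, glutamate receptors, GABA genes, oligodendrocyte, astrocyte and microglia genes and the H3K79 machinery held 0 nearest genes each, of 10 to 22 genes. Only a gene that a line of the peak lists names can be nearest. Those lines name 1 of 12 astrocyte, 2 of 12 microglia, 2 of 15 oligodendrocyte and 3 of 10 D2-type genes, and 7 to 16 genes of the others. Of all 12700 genes named, 381 were nearest genes, so a 0 in gene lists this short says little about them.

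The share of intergenic peaks differed widely between chromosomes. On chromosomes 1, 2, 3, 5 and 11 together it was 0.292% of 39748 Standard and 0.278% of 36028 ELS peaks. On chromosomes 9, 14, 16 and 17 it was 6.11% of 20995 and 5.20% of 18797, and on the other autosomes 2.11% and 1.98%. Chromosome 16, with Rbfox1, Robo1, Tiam1 and Fgf12, had the highest share of the autosomes at 9.52% and 7.17%. These groups of chromosomes were formed after the shares were seen, so they describe and do not test.

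The gap between the annotations ran alongside. Among protein-coding genes of 100 kb or longer, the listed start lay 10 kb or more inside the RefSeq start in 19 of 529 genes (3.59%) on chromosomes 1, 2, 3, 5 and 11. The same held for 30 of 262 genes (11.5%) on chromosomes 9, 14, 16 and 17 and for 52 of 810 (6.42%) on the others. The RefSeq stretches ahead of the listed starts of all protein-coding genes summed to 4.19, 6.54 and 7.67 Mb in these 3 groups. The part of this gap in the shares was not tested.

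**Figure D3:**
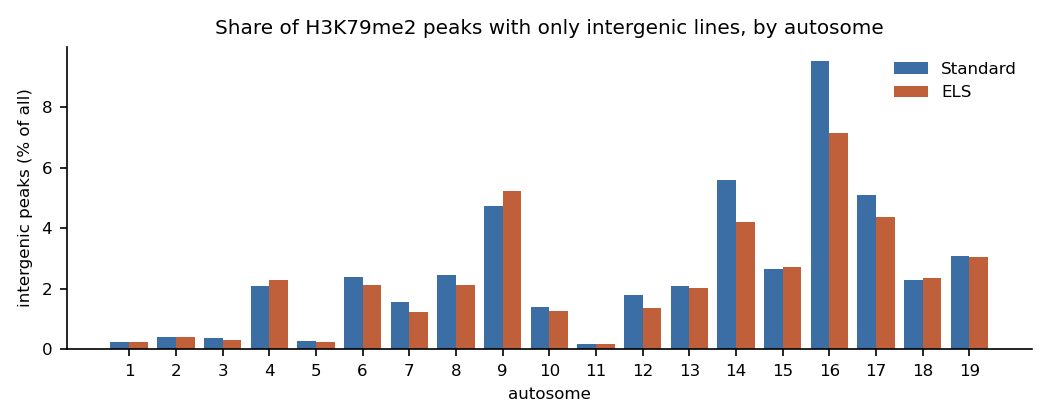
Intergenic peaks as a percentage of all distinct H3K79me2 peaks on each autosome, with the Standard list in blue and the ELS list in orange. The bars are lowest on chromosomes 1, 2, 3, 5 and 11 and highest on chromosome 16, at 9.52% and 7.17%.

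Intergenic peaks with high folds that both lists mark were broad in the Standard list and lay in genes. Among those with the highest folds were chr9:121302973-121306432 in Trak1 (fold 3.34, 3459 bp) and chr9:113807261-113811258 in Clasp2, a microtubule plus-end protein (3.25, 3997 bp). They also included chr9:32059213-32063009 in Arhgap32 (3.22, 3796 bp) and chr15:82946421-82952442 in Tcf20, a transcriptional coregulator (3.20, 6021 bp). These 4 lay 7.20 to 69.2 kb from the RefSeq 5′ end of their gene. In the ELS list the first was chr12:55234026-55234959 in Srp54c, of the signal recognition particle (3.15, 933 bp), and others lay in Spire1 and Clasp2 (2.87 each) and in Arhgap32 (2.85). Srp54c has near-identical copies beside it, among them Srp54b, so reads there may be split between copies.

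The widest intergenic peaks were the same 3 places in both lists. The first was chr7:16006734-16020964 in Bicra, a subunit of a BAF chromatin remodelling complex that the lists call Gltscr1, at 14230 bp in the Standard and 10757 bp in the ELS list. The next was chr19:37342228-37356098, 4.38 kb upstream of the listed start of Ide, the insulin-degrading enzyme, at 13870 and 13093 bp, and it lay outside every RefSeq gene. The third was chr9:32040546-32053255 in Arhgap32, at 12709 and 9288 bp.

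The highest folds among peaks that the other list does not mark belonged to narrow peaks. The 5 in the Standard list were 183 to 290 bp wide with folds of 2.40 to 2.96, led by chr7:62621877-62622061 (184 bp, fold 2.96), which lay 199 kb from a listed and 10.1 kb from a RefSeq gene. The next was chr8:69577263-69577446, 1.06 kb from a RefSeq gene, then chr14:100249667-100249851 inside Klf12, chr6:73289717-73289906 at the start of the predicted gene Gm40378, and chr15:85682837-85683127. In the ELS list the 5 were 183 to 549 bp wide with folds of 2.04 to 2.20, in Arhgap32, Gm27243, Tiam1 and Fgf12 and on 1 unplaced sequence. Widths near 180 bp are the lower limit of the lists, 178 bp in the Standard and 181 bp in the ELS list.

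Counting any shared base, 1471 Standard intergenic peaks (56.1%) overlapped an ELS peak and 1790 ELS intergenic peaks (84.9%) overlapped a Standard peak. The shares were lower than those of genic peaks, 62.8% and 90.9%. The partner was nearly always intergenic too, in 1467 of the 1471 and 1773 of the 1790. Unshared intergenic peaks were narrow, with medians of 289 bp (Standard) and 258 bp (ELS) against 760 and 488 bp for shared ones, and none was wider than 1907 and 831 bp.

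Overlap followed width. Of Standard intergenic peaks up to 250 bp wide 22.1% were shared, of those of 500 to 1000 bp 73.0%, and of the 243 above 2000 bp 100%. The genic peaks of the same widths gave 24.3%, 75.8% and 99.98%. In the ELS list the intergenic shares were 63.7%, 97.0% and 100%, and the genic shares 73.5%, 98.5% and 100%. By fold, 22.1% of Standard intergenic peaks up to 1.75 and 98.3% of those above 2.5 were shared, against 25.9% and 99.6% of genic peaks. In the Standard list the 2 classes thus lay closer to each other in each range of width or fold than in total. In the ELS list this held for peaks wider than 500 bp, but of those of 250 to 500 bp 80.6% of intergenic and 87.8% of genic peaks were shared, and of those up to a fold of 1.75 62.9% and 75.7%. By place, 57.4% of Standard peaks inside a RefSeq gene and 52.1% of those outside every RefSeq gene were shared, and 85.8% and 81.7% in the ELS list. On patch or unplaced sequences 1 of 20 and 1 of 7 were shared.

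**Figure D4:**
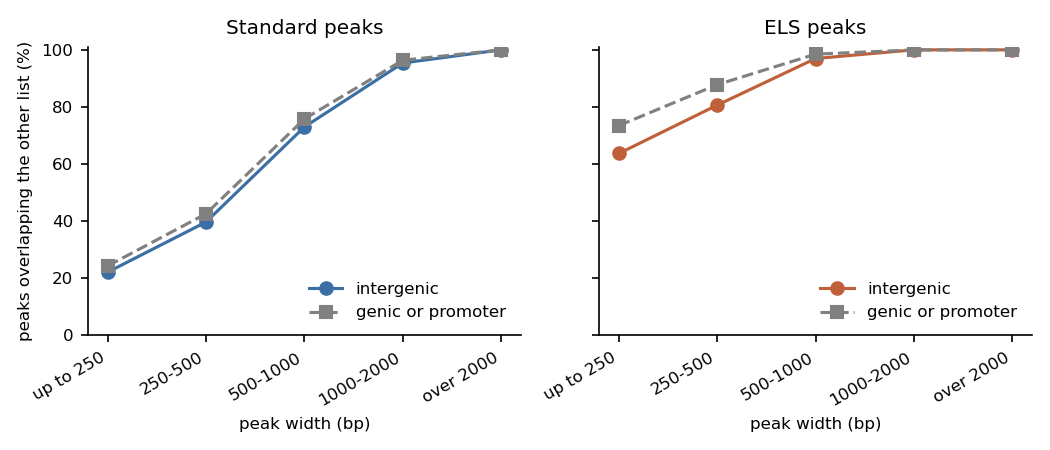
Percentage of peaks that overlap a peak of the other list by at least 1 base, by peak width (bp), for Standard and ELS peaks, with intergenic peaks as circles and genic peaks as squares. The lines rise from 22.1% (Standard) and 63.7% (ELS) of the narrowest intergenic peaks to 100% above 2000 bp.

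The 489 Standard and 372 ELS peaks outside every RefSeq gene formed 161 loci when peaks up to 50 kb apart were joined, and 69 loci had peaks of both lists. The 5 largest loci held 347 of these 861 peaks. The first, chr9:117758302-117870232, held 49 Standard and 40 ELS peaks, 2.91 kb from the listed noncoding gene Gm26614. The second, chr14:17086298-17170676, held 51 and 36 and began 3.97 kb upstream of the RefSeq start of Rarb, so it continued the run of peaks in that gene. The third, chr4:142242816-142303003, held 41 and 41 and began 3.42 kb upstream of Kazn, which encodes the cell junction protein kazrin.

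The fourth locus, chr17:3199712-3252741, held 31 Standard and 23 ELS peaks and began 0.853 kb downstream of Scaf8, a protein that binds the tail of RNA polymerase II. The fifth, chr6:126559727-126635820, held 21 and 14 beside the potassium channel gene Kcna1. Next came chr15:85657725-85699639, with 20 and 12 peaks and a fold of up to 3.10, the highest of these 6. Outside RefSeq genes the median distance to the nearest RefSeq gene was 7.10 kb in the Standard and 7.79 kb in the ELS list, and the median to the nearest protein-coding gene was 19.9 and 29.0 kb.

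Dot1l, the targeted gene, was checked first. It ranged from 10.6 CPM over a median of 36.3 to 48.5 CPM in Standard GFP and from 25.2 over 37.7 to 75.01 CPM in the libraries labelled Standard Dot1l overexpression (log2 change 0.33, SE 0.27, edgeR adjusted p = 0.741). It ranged from 15.4 over 35.0 to 54.2 CPM in ELS GFP and from 28.9 over 38.4 to 74.9 CPM in the libraries labelled ELS Dot1l knockdown (log2 change 0.28, SE 0.27, edgeR adjusted p = 0.985). The counts thus did not show a lower Dot1l level in the libraries labelled knockdown. Nor did the test call a higher level in those labelled overexpression. Directions from both sets of libraries are given under that limit.

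RNA from separate libraries showed the genes concerned at levels above most genes. In Standard GFP, the 60 tested genes of 63 that hold 10 or more intergenic peaks and have an Ensembl ID had a median level of 67.4 CPM, against 10.6 CPM over all 14016 genes tested. The 142 tested genes of 168 with any intergenic peak had a median of 33.3 CPM, and the 322 tested of the 381 nearest listed genes 27.2 CPM. CPM is not scaled to transcript length, and these counts cover the whole gene, so they do not show which start was used.

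No nearest listed gene passed an adjusted p of 0.05 in edgeR's quasi-likelihood test for ELS GFP against Standard GFP, 0 of 322, where 0% of all genes did. Of the nearest genes 32 had an unadjusted p under 0.05, 8 higher and 24 lower in ELS GFP, against 11.7% of all genes tested, 560 higher and 1084 lower. With the title number as a block the nearest genes gave 8 higher and 10 lower, where 6.53% of all genes passed, 490 higher and 425 lower. Their median log2 change was -0.06, against -0.01 over all genes. The counts were 0 of 322 for the libraries labelled Standard Dot1l overexpression against Standard GFP too (0% of all genes), with 33 at an unadjusted p under 0.05 against 10.9% of all genes. For the libraries labelled ELS Dot1l knockdown against ELS GFP they were 0 (0% of all genes) and 14 (6.18% of all genes). Of the 322, 33 are 10.2% and 14 are 4.35%, and 32 are 9.94%, so by edgeR each share was below that over all genes. This did not hold in every comparison by other fits. By limma voom the shares of the nearest genes were 7.45% against 6.55% of all genes for ELS GFP, 7.76% against 4.68% for overexpression and 2.48% against 5.54% for knockdown. By DESeq2 they were 10.2% against 11.5%, 12.4% against 10.9% and 3.42% against 6.11% in the same order. With the title number as a block in edgeR they were 8.07% against 6.85% for overexpression and 2.795% against 4.81% for knockdown. Of the 142 tested RefSeq genes that hold the peaks, edgeR gave 12.7% for overexpression and 8.45% for knockdown, above the shares over all genes, and 9.86% for ELS GFP. The 3 comparisons share control libraries.

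By limma voom the adjusted count was 0 of 322 in each comparison (0% of all genes in each). DESeq2 gave 2 of 322 for ELS GFP against Standard GFP, where it called 0.628% of all genes. It gave 0 of 322 in the others, where it called 0.3% and 0.0143%. The 2 were Gm13052 (log2 change -1.31, SE 0.37, edgeR adjusted p = 0.120) and Bicra (-1.13, SE 0.32, edgeR adjusted p = 0.127), whose DESeq2 adjusted p-values were 0.0411 and 0.046. In Standard GFP, Bicra ranged from 16.6 CPM over a median of 37.9 to 184 CPM, and in ELS GFP from 19.4 over 32.9 to 48.9 CPM. The groups overlapped, and the highest Standard GFP library held 30.9% of the Standard GFP sum. At Gm13052 Standard GFP replicate 1, with 0.980 M counts, held 46.6% of the Standard GFP sum. Without the libraries under 1 M counts the log2 change of Bicra was -0.70 and that of Gm13052 -0.73.

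The genes that hold most intergenic peaks had overlapping RNA levels in both GFP groups. Rbfox1 ranged from 583 CPM over a median of 846 to 1263 CPM in Standard GFP and from 527 over 750 to 1520 CPM in ELS GFP, a log2 change of -0.11 (SE 0.20, edgeR adjusted p = 0.901). Rarb ranged from 23.2 over 98.9 to 361 CPM and from 44.7 over 86.0 to 144 CPM (log2 change -0.65, SE 0.44, edgeR adjusted p = 0.616). Robo1 ranged from 59.9 over 100 to 233 CPM and from 45.4 over 87.7 to 126 CPM (log2 change -0.35, SE 0.31, edgeR adjusted p = 0.744). Slc35f3 had the smallest p of the 9 genes plotted, with 43.4 over 55.0 to 179 CPM against 37.5 over 50.0 to 63.1 CPM and an edgeR adjusted p of 0.363. In none of these genes did the groups separate.

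**Figure D5:**
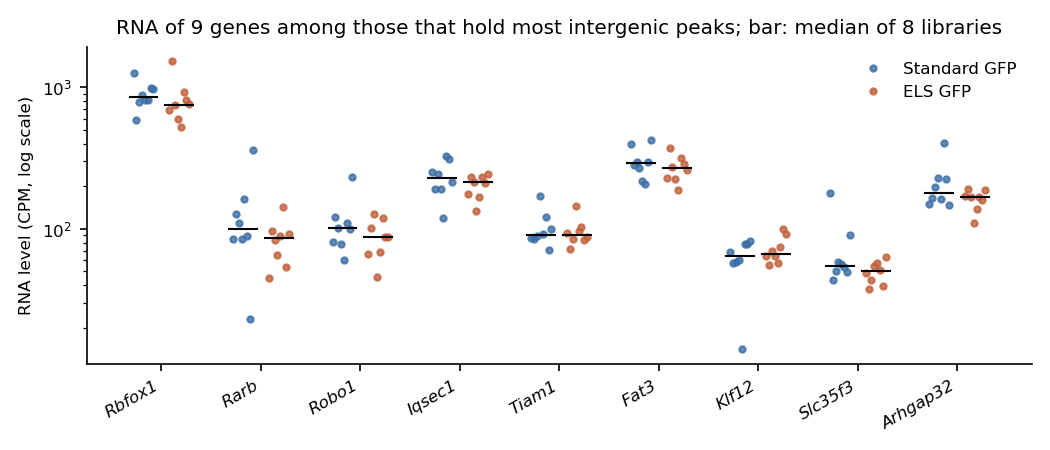
RNA level (CPM, log axis) of 9 genes among those that hold most intergenic peaks in each of the 8 Standard GFP (blue) and 8 ELS GFP (orange) libraries, with the median as a bar. The groups overlap in every gene, with Rbfox1 the highest at medians of 846 and 750 CPM.

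Among the nearest listed genes with the smallest p-values, none of them past the threshold, the fitted level in ELS GFP was higher than Standard GFP at Ube2e3, Rbm12b1, Fam92a, Gpr85 and Pfn2, with log2 changes of 0.73 to 2.22. It was lower at Gm13052, Bicra, 1700123O21Rik, Zfp938 and Sox8, with -1.94 to -1.12, and the edgeR adjusted p-values of these 10 lay between 0.120 and 0.189. A single ELS GFP library, replicate 2, held 50.3% to 76.1% of the ELS GFP sum at Ube2e3, Rbm12b1, Gpr85 and Pfn2, and Standard GFP replicate 6 held 64.7% of the Standard GFP sum at Zfp938. The libraries labelled Standard Dot1l overexpression had higher values at Trim39, Zfp948, Bhlhe41 and Akirin2 (0.73 to 1.95) and lower at Bicra, Rnf103, Gm13052, Zfp329 and Aopep (-1.75 to -0.68). Replicate 1 of the overexpression libraries held 61.6% of their sum at Zfp948, and Standard GFP replicate 6 held 72.1% of the Standard GFP sum at Rnf103. Those labelled ELS Dot1l knockdown had higher values at Rnf180, Zfp131, Ppp2r5c, Aurkaip1 and Mbnl2 (0.47 to 0.97) and lower at Rbm12b1, Gpr85, Ube2e3, Slc16a4 and Map1s (-2.70 to -1.002). Replicate 7 of the knockdown libraries, with 0.462 M counts, held 56.4% of their sum at Rnf180. ELS GFP replicate 2, the library named above, is among the controls here and held 71.1% of the ELS GFP sum at Rbm12b1, 76.1% at Gpr85 and 50.3% at Ube2e3.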

How the data were processed

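Per the labels' protocols, chromatin of fixed accumbens tissue was immunoprecipitated for H3K79me2, and RNA was prepared from whole tissue. The authors deposited 1 peak list per rearing group, with a fold (a ratio) and a q-value per peak, per the file headers. How peaks were called, what the fold is relative to and whether libraries were pooled is not stated in the labels or headers. The build is mm10 per the submitters' processing notes. Lines were reduced to distinct peaks (475994 and 432179 lines to 117819 and 106374 peaks), and coordinates are those of the lists. A peak overlapped another with 1 shared base. Distances run to the nearest edge of any gene that a line names. Peaks were also placed against 49943 RefSeq genes of GRCm38.p6, by position, a step added after the lists were seen. RefSeq genes were matched to listed genes by symbol or synonym and overlap, for 10507 genes.

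The authors deposited raw counts per gene for 32 RNA libraries, with all 32 columns matched to titles and 0 unmatched. The labels do not state whether counting used strand, so overlapping and antisense genes cannot be told apart. The test was edgeR 4.0.16 under R 4.3.3, with TMM factors, filterByExpr (14016 genes left), a robust quasi-likelihood fit of all libraries with a mean per group, and a Benjamini-Hochberg adjustment over all genes at 0.05. The SE was derived from the test. DESeq2 1.42.0 and limma 3.58.1 served as alternatives. Labels do not say that libraries are separate animals, so p-values measure the spread between libraries, which may be technical.

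Peaks named in each list were the 5 with the highest fold that the other list lacks, the 5 highest that it has, and the 3 widest. Genes named were the 10 nearest to most peaks, those of the gene lists, the 5 per direction with the smallest p in each comparison, and, added, the RefSeq genes with most peaks. Members and lists were chosen with earlier results of these data known. Sequence under the named peaks is not analysed here, and a few genes that these rules name are not reported here.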

Additional observations from a re-analysis of the deposited data

Results flagged for a closer look

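In 7 of the 18 combinations of a gene with many intergenic peaks and a GFP group, 1 of the 8 RNA libraries stood apart, its gap to the nearest other library, as a share of the whole range, being above Dixon's 95% critical value. Chance alone does this in about 1 of 20 groups where values are normal and groups independent. The values here are untransformed CPM, and the 18 combinations reuse the same libraries, so 7 of 18 is not to be compared with that rate. In Standard GFP the highest library stood apart at Arhgap32 (gap 0.688 of the range, replicate 6, 404 CPM with the next at 228), Rarb (0.589, replicate 8, 361 and 162 CPM), Robo1 (0.644, replicate 8, 233 and 122 CPM) and Slc35f3 (0.653, replicate 1, 179 and 90.5 CPM). At Klf12 the lowest did (0.635, replicate 5, 14.1 and 57.1 CPM). Standard GFP replicates 1 and 5 held 0.980 and 0.546 M counts, under 1 M, and replicate 8 held 5.14 M. In ELS GFP the highest library stood apart at Rbfox1 (0.603, replicate 2, 1520 and 920 CPM, with 1.76 M counts) and Tiam1 (0.585, replicate 4, 145 and 102 CPM).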

How the results depend on the processing

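Of 90 values of the peaks recomputed under alternatives, 66 moved little. With a fold of at least 2 in both lists, 952 Standard and 692 ELS intergenic peaks were left, with median widths of 1013 and 998 bp, 82.2% and 87.0% inside a RefSeq gene, and 90.8% of ELS peaks shared. At least 10 kb from a listed gene, 86.3% and 87.4% lay inside a RefSeq gene and the Standard median distance was 49.0 kb. Merging peaks within 1 kb left 989 and 869. Requiring an overlap of at least 50% of the peak gave shares of 42.4% (Standard) and 78.0% (ELS), and counting peaks within 1 kb as shared gave 75.8% and 94.2%. After the data were seen, leaving out X, Y, patch and unplaced sequences and chromosomes 9, 14, 16 and 17 was added. It left 1319 and 1121 peaks, 76.8% and 78.9% of them inside a RefSeq gene and 59.0% of the Standard ones shared. Leaving out the 10 RefSeq genes with most peaks, also added, gave 71.4% and 74.2% inside a RefSeq gene and a Standard median distance of 21.0 kb. Where these alternatives drop peaks, the change follows from that, and other causes were not tested.

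Of 24 recounts of called nearest genes, 23 stayed at 0 and DESeq2 gave 2 for ELS GFP against Standard GFP. Without libraries under 1 M counts, edgeR called 7 genes of all 15149 in that comparison and 18 for Dot1l overexpression, 0 of them nearest genes. Of the 18, E430024I08Rik, which holds 4 Standard and 3 ELS intergenic peaks, had a log2 change of -2.54 (edgeR adjusted p = 0.0433), and was named after its values were seen. Deviations of libraries with the same title number had a mean correlation of 0.027 over 90 pairs, with 26.7% of pairs above 0.1, against -0.0062 and 17% over 294 other pairs, so the numbers were not taken to pair the libraries. With the title number as a replicate block the calls stayed at 0 in each comparison, with 18, 26 and 9 at an unadjusted p under 0.05 in place of 32, 33 and 14. Signs of log2 changes, none called, were turned for Map1s (0.103 by limma voom), Rnf180 (-0.0054 by DESeq2) and Gpr85 (-0.0174 by DESeq2), and without libraries under 1 M counts for Tiam1 (0.0571).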
